A study of Homo sapiens with 3 samples.

Results

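The zinc finger genes of the short arm of human chromosome 19 were followed across the 3 libraries of a knockdown experiment in HEK293 cells, an established line from human embryonic kidney. Members were named by gene symbol as 60 zinc finger genes of the clusters at 19p12 and 19p13.2, and 35 of these 60 had a row in the deposited table of 12040 genes. All 3 libraries came from poly(A) RNA of a T-REx Flp-In derivative of HEK293 that carries FLAG-tagged DICER1, so mock-treated cells carried the transgene too. The groups were cells transfected for RNA interference against DICER1, cells transfected against DROSHA, and mock-transfected cells, with 1 library each and the label 2.5d in every title. The table names none of its columns. Its 3 level columns are therefore called the shared denominator library, the first numerator library and the second numerator library, after the fold changes they form, and none is assigned to a knockdown or to mock transfection. DICER1, which cuts miRNA precursors, had deposited levels of 15.7, 5.72 and 24.0 in that order, and DROSHA, which releases these precursors from their primary transcripts, had 23.3, 21.4 and 6.72. With no replicates, every value describes single libraries, and the error between cultures is unknown. Of the 8 marker genes of the neuronal and renal features of HEK293, 4 were listed (INA, NEFL, SIX2 and GATA3), and of 10 markers of other cell types only VIM, which many cultured lines express, was listed. INA, NEFL and VIM were higher in the first than in the second numerator library, at direct log2 ratios of 1.61, 0.99 and 0.65. SIX2 stood at 0.32 and GATA3 at -0.01. The part of these markers in the values of the zinc finger genes was not tested.

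KRAB zinc finger proteins form the largest family of transcription factors in mammals. Tandem C2H2 fingers, each folded around a zinc ion, bind DNA, and the KRAB box recruits the corepressor TRIM28 (KAP1), which brings the histone methyltransferase SETDB1 and HP1 proteins to silence chromatin. Many of these proteins bind retrotransposons, and the genes lie in clusters that arose by tandem duplication, most of them on chromosome 19. Because the fingers and the linkers between them are repeated, the coding sequence is repetitive as well and can hold the same short sequence many times.

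That repetition was examined because DICER1 and DROSHA make miRNAs, which pair with messages through their seed (bases 2 to 8). Its part in the values was not tested. Seed matches of 4 miRNAs were counted on the coding strand of the longest coding transcript of each gene (GENCODE release 29, GRCh38). The mature sequences, from RefSeq (GRCh38.p14), are shown with the seed in capitals because the members differ in which of them they match.
miR-181a-5p: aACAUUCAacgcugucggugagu
miR-23a-3p: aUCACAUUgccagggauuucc
miR-17-5p: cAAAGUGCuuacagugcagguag
let-7a-5p: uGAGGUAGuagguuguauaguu
The searched 7-base matches were TGAATGT for miR-181a-5p, AATGTGA for miR-23a-3p, GCACTTT for miR-17-5p and CTACCTC for let-7a-5p. TGAATGT and AATGTGA can overlap in their shared AATGT. Levels of these miRNAs were not measured here.

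Seed matches divided the members by block. The members nearest the centromere, from ZNF101 to ZNF254, are called the 19p12 block. Those from ZNF627 to ZNF791 form the inner 19p13.2 block, and those from ZNF557 to ZNF846, nearest the telomere, the outer 19p13.2 block. Of the 25 named members of the 19p12 block, 22 had at least 3 matches to miR-23a-3p in the coding sequence (88.0%), with a median of 12. None of the 23 of the inner block and 1 of the 12 of the outer block, ZNF559, did so. For miR-181a-5p the order was the opposite: at least 3 matches were found in 21 of 23 genes of the inner block, in 9 of 12 of the outer block, and in 2 of 25 of the 19p12 block, ZNF14 and ZNF101. Over all 10576 genes of the table with such a transcript, 1.17% had 3 or more coding matches to miR-23a-3p and 2.09% to miR-181a-5p. The shares were higher in other zinc finger genes. They were 14.6% and 34.8% in 465 other genes with at least 3 C2H2 fingers. In 345 other rows named ZNF, a set that overlaps these 465 genes, they were 18.3% and 42.9%. Coding matches to miR-17-5p and let-7a-5p were rare in the members, with at most 1 in any gene and any such match in 2 of 60 genes for each miRNA. Over all genes the shares with any coding match were 9.97% and 14.1%. In the 3' UTR, the stretch after the coding sequence, matches to miR-17-5p were not rare. At least 1 lay there in 15 of 35 listed members, against 2322 of 10576 genes. For miR-181a-5p these counts were 19 and 2052, for miR-23a-3p 15 and 1976, and for let-7a-5p 2 and 1026. Median 3' UTR length was 1246 bases in the listed members and 1037 over all genes. The part of 3' UTR matches in the values was not tested. ZNF208, with 36 fingers the longest array among the members, had 35 coding matches to miR-23a-3p, and ZNF91, which represses SVA retrotransposons and has 32 fingers, had 22. ZNF738, the 1 named member with no finger in its annotated coding sequence, had no coding match to miR-23a-3p or miR-181a-5p.

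**Figure D1:**
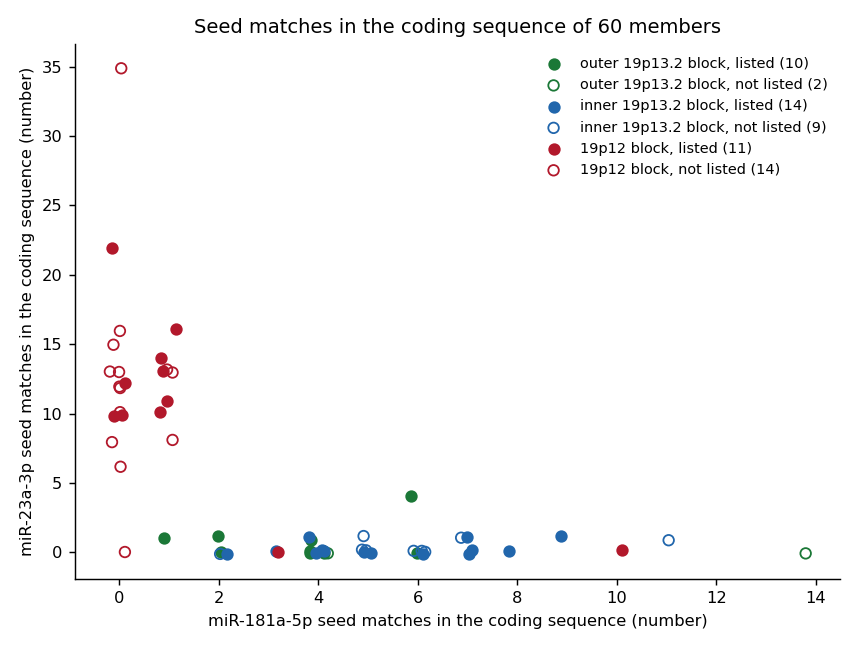
Number of 7-base seed matches to miR-181a-5p (horizontal axis) and to miR-23a-3p (vertical axis) in the coding sequence of each of the 60 named members, coloured by block, filled where the gene is listed in the table; points are shifted slightly so that they do not hide each other. Most 19p12 genes lie along the vertical axis, up to 35 matches, and the 19p13.2 genes lie along the horizontal axis, up to 14.

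The matches recur with the fingers. Of 130 matches to miR-181a-5p in the 35 listed members, 109 (83.8%) covered the codon of the first zinc-binding cysteine of a finger, as did 88 of 128 matches to miR-23a-3p (68.8%). These stretches of coding sequence, 5′ to 3′ and equal in length, show the repeat, with matches to miR-23a-3p in capitals in ZNF714 and ZNF429 and matches to miR-181a-5p in ZNF433 and ZNF564.
ZNF714: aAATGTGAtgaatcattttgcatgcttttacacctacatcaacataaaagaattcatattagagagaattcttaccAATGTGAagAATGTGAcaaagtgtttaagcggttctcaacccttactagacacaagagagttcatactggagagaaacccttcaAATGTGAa
ZNF429: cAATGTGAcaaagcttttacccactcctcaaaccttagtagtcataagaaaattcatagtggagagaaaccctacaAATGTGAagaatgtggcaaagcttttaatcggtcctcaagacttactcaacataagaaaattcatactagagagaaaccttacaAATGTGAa
ZNF433: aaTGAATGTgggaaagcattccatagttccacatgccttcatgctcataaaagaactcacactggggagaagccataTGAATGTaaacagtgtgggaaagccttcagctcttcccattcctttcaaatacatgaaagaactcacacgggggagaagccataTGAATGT
ZNF564: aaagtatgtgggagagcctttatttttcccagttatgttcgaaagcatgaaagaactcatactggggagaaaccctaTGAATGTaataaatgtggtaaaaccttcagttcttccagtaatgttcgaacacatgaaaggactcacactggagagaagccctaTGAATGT
They begin at base 445 of the coding sequence of ZNF714, 1705 of ZNF429, 769 of ZNF433 and 934 of ZNF564. Among stretches of that length that begin at the first base of a codon, none in the same coding sequence held more matches. Across its whole coding sequence ZNF714 had 16 matches to miR-23a-3p and ZNF429 had 10, while ZNF433 had 7 and ZNF564 had 8 to miR-181a-5p. A match of this kind is a description of the letters and not a shown binding site.

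The table listed the blocks unevenly, with rows for 11 of 25 genes of the 19p12 block, 14 of 23 of the inner 19p13.2 block and 10 of 12 of the outer block. The 25 members without a row include ZNF43, ZNF85, ZNF90, ZNF93 and ZNF208 of the 19p12 block and are not analysed here. Every listed gene of the table had a denominator level above 1, so a gene entered through that library alone. Listed levels, whose unit and scaling by length are not given in the sources used here, were low. The median over the members was 2.57 in the denominator library, 2.66 in the first and 3.13 in the second numerator library, against 9.55, 9.74 and 9.62 over all genes. Among the 35, ZNF121 had the highest mean level, at 10.7, 9.33 and 9.78, and ZNF490 the lowest, at 1.14, 0.69 and 0.94. Of the 35, only 6 averaged at least 5 over the libraries: ZNF558, ZNF317, ZNF266, ZNF121 and ZNF561 of the outer block and ZNF791 of the inner block.

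The summed level of the 35 genes was 122 in the denominator library, 111 in the first numerator library and 139 in the second. The first numerator library was the lowest of the 3 for 26 of the 35 members, against 29.3% of all genes. The second numerator library was the highest for 24 of the 35, against 38.2% of all genes. Both held for 19 of the 35, against 20.9% of all genes. By block, both held for 6 of 11 genes at 19p12, 7 of 14 in the inner and 6 of 10 in the outer block. In bulk RNA, fewer cells with a transcript and less of it per cell cannot be told apart.

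**Figure D2:**
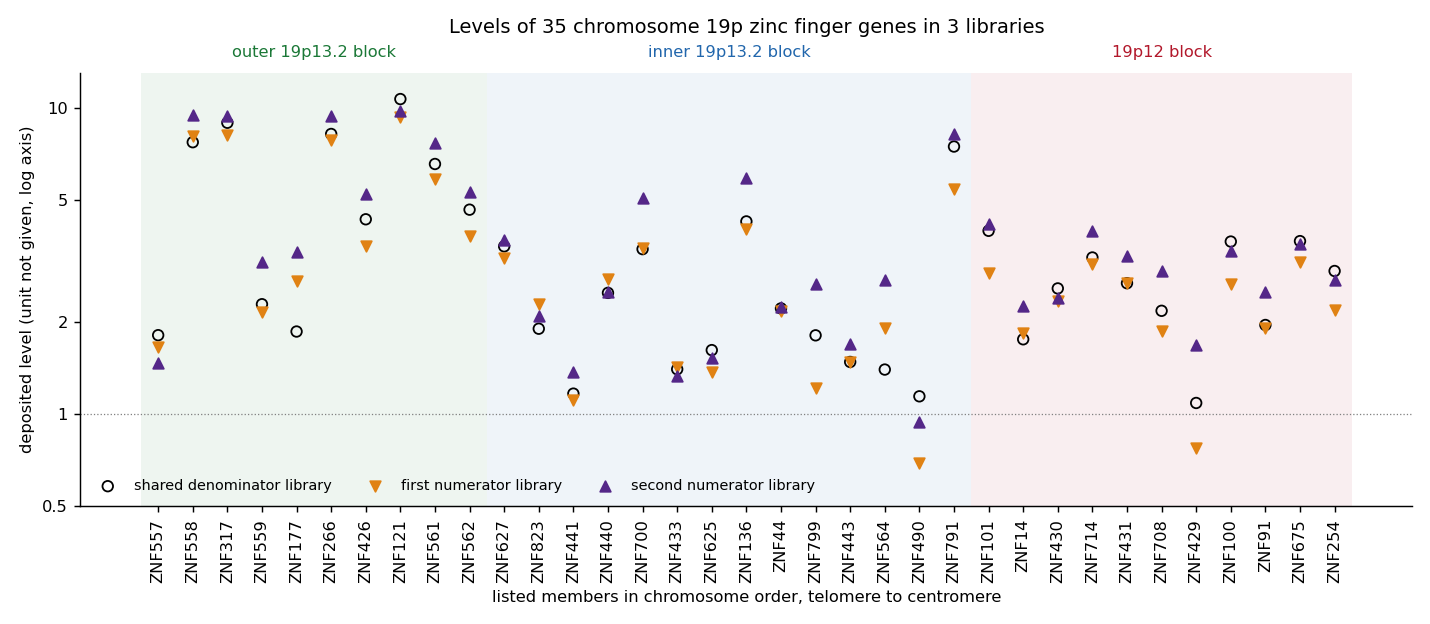
Deposited level (log axis, unit not given) of each of the 35 listed members in the shared denominator library (circles), the first numerator library (downward triangles) and the second numerator library (upward triangles), in chromosome order from telomere to centromere. For 26 members the downward triangle is the lowest of the 3 points, and for 24 the upward triangle is the highest.

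Against the denominator library, the first numerator library gave small log2 fold changes, computed after adding 1 to each level as the authors did. The median of the 35 was -0.08, against 0.03 over all genes, and the members ranged from -0.40 to 0.38. A gene is called higher or lower where its log2 value is at least 0.5 in size, a 1.41-fold difference. No member was higher, against 1.46% of all genes, and none was lower, against 2.04%. Below 0 stood 27 of the 35 (77.1%), against 43.4% of all genes, and above 0 stood 8 (22.9%), against 56.5%. At a smaller threshold of 0.3, 1 of the 35 was at or above it, against 959 of 12040 genes (7.97%). At or below -0.3 were 6 of the 35, against 802 of 12040 genes (6.66%).

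The lowest values in the first comparison were spread over the inner and 19p12 blocks. ZNF791 had levels of 7.47 in the denominator and 5.42 in the first numerator library, a log2 fold change of -0.40. ZNF101, the outermost gene of the 19p12 block, followed at -0.36 with levels of 3.96 and 2.88. Its neighbour ZNF14, the next gene towards the centromere, stood at 0.04 with 1.75 and 1.84. ZNF100 was at -0.35 (3.65 and 2.66), ZNF799 at -0.34 (1.805 and 1.21) and ZNF490 at -0.34 (1.14 and 0.69). ZNF490 was above 1 in the denominator library alone, the library that decides which genes are listed. No change is therefore read from its place among the lowest in either comparison, though the counts and medians still include it. In the 19p12 block 10 of 11 genes were below 0, in the inner block 9 of 14 and in the outer block 8 of 10, with medians of -0.15, -0.03 and -0.10. The lowest of the outer block was ZNF426 at -0.23 (4.32 and 3.52). The highest were ZNF177 at 0.38 (1.86 and 2.71), ZNF564 at 0.28 (1.40 and 1.91), ZNF823 at 0.18 (1.90 and 2.29), ZNF440 at 0.11 (2.48 and 2.75) and ZNF558, a repressor of the mitophagy gene SPATA18, at 0.06 (7.72 and 8.08). Of these 5, 3 lie in the inner block.

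In the second comparison the members stood mostly above 0. Their median log2 fold change was 0.13, against 0.01 over all genes, and 26 of 35 were above 0 (74.3%), against 51.1% of all genes. The other 9 (25.7%) were below 0, against 48.9%. By the threshold of 0.5, 2 members were higher (5.71%), against 2.33% of all genes, and none was lower, against 5.59%. At 0.3, 8 of the 35 were higher, against 1293 of 12040 genes (10.7%), and 0 of the 35 were lower, against 1737 (14.4%). ZNF564 rose most, to 0.65, from a level of 1.40 in the denominator library to 2.75 in the second numerator library. ZNF177 rose by 0.62, from 1.86 to 3.38. Both were also the highest members in the first comparison, which shares the denominator library, and that library had the lowest of the 3 levels for both.

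Other members of the second comparison stayed under the threshold. ZNF700 stood at 0.45 (3.45 and 5.08), ZNF136 at 0.39 (4.25 and 5.91) and ZNF799 at 0.38 (1.805 and 2.65), all in the inner block. In the 19p12 block ZNF429 was the highest at 0.36 (1.09 and 1.68), then ZNF708 at 0.31 (2.17 and 2.93), and ZNF91 stood at 0.24 (1.95 and 2.496). The lowest of all were ZNF557 of the outer block at -0.18 (1.81 and 1.47), ZNF490 at -0.14 (1.14 and 0.94), ZNF121 at -0.11 (10.7 and 9.78), ZNF100, the lowest at 19p12, at -0.08 (3.65 and 3.42) and ZNF430 at -0.07 (2.57 and 2.40). ZNF121, like ZNF177 and ZNF714 among the listed members, carries fingers but no KRAB pattern in its annotated protein. Medians were 0.22 at 19p12 (7 of 11 above 0), 0.10 in the inner block (11 of 14) and 0.19 in the outer block (8 of 10).

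**Figure D3:**
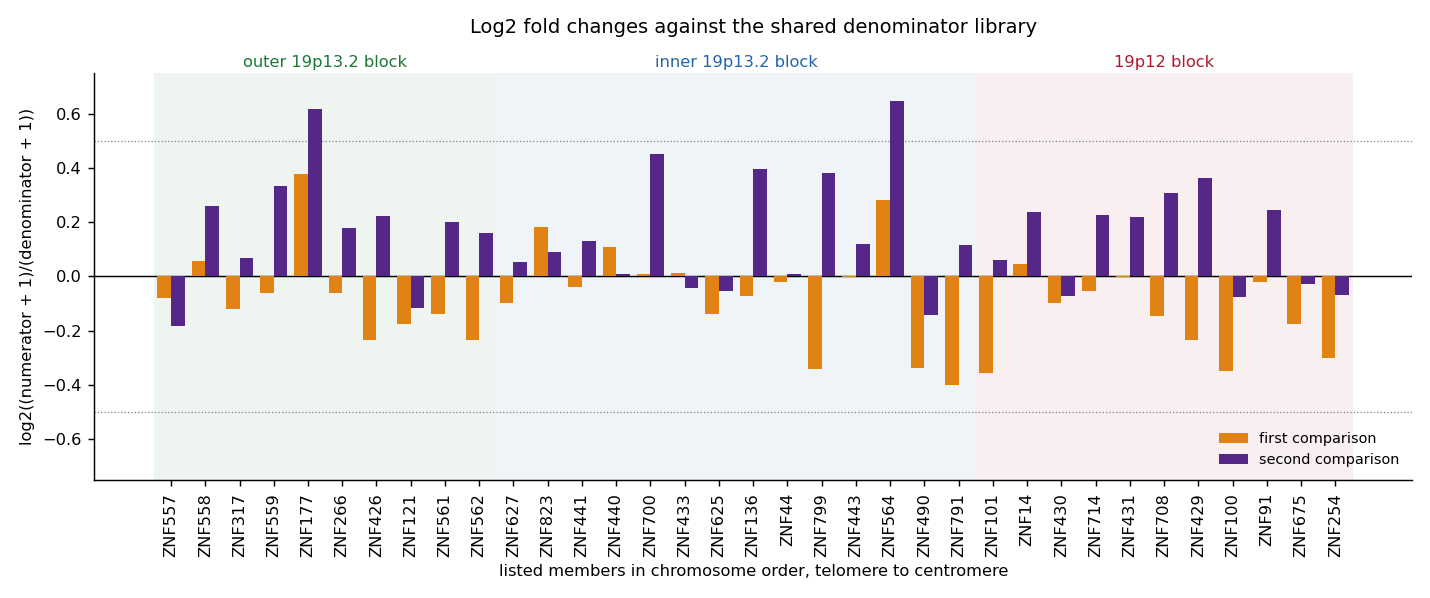
Log2 fold change of each listed member against the shared denominator library in the first (orange) and second (purple) comparison, in chromosome order; dotted lines mark 0.5 and -0.5. Orange bars point down for 27 of 35 genes and purple bars point up for 26, and ZNF177 and ZNF564 alone pass a dotted line.

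The numerator libraries were then set against each other, where the denominator library cancels. This direct ratio is the first minus the second fold change and adds no independent observation. The median was -0.23, against 0.02 over all genes, and 31 of 35 members were below 0 (88.6%), against 46.6% of all genes. By the threshold, 3 members were lower in the first numerator library (8.57%), against 4.82% of all genes, and none was higher, against 8.60%. At 0.3, 12 of the 35 were lower, against 1690 of 12040 genes (14.0%), and 0 of the 35 were higher, against 2355 (19.6%). ZNF799 was lowest at -0.72, with levels of 1.21 in the first and 2.65 in the second numerator library. ZNF429 was at -0.60 (0.77 and 1.68) and ZNF791 at -0.52 (5.42 and 8.18). ZNF136 at -0.47 and ZNF426 of the outer block at -0.46 came next. Of the 3 calls, only that of ZNF799 remained after adjustment for GC content and transcript length, at -0.59 (all genes 3.58% lower), with ZNF429 at -0.43 and ZNF791 at -0.40. None remained with a pseudocount of 5.

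Above 0 in the direct ratio were 4 members (11.4%), against 53.4% of all genes: ZNF557 at 0.10, ZNF440 at 0.10, ZNF823 at 0.09 and ZNF433 at 0.05. ZNF433 had 1.42 and 1.33, and the levels of all 4 were under 3 in every library. At 19p12 all 11 genes were below 0, from ZNF430 at -0.03 to ZNF429, with a median of -0.27. In between lay ZNF675, an inhibitor of TRAF6 signalling, at -0.15 (3.13 and 3.58) and ZNF91 at -0.27 (1.91 and 2.496). The inner block had a median of -0.16 with 11 of 14 below 0, and the outer block a median of -0.24 with 9 of 10. All 6 members with a mean level of at least 5 were below 0, from ZNF791 to ZNF121 at -0.06, against 47.8% of all genes at that level.

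**Figure D4:**
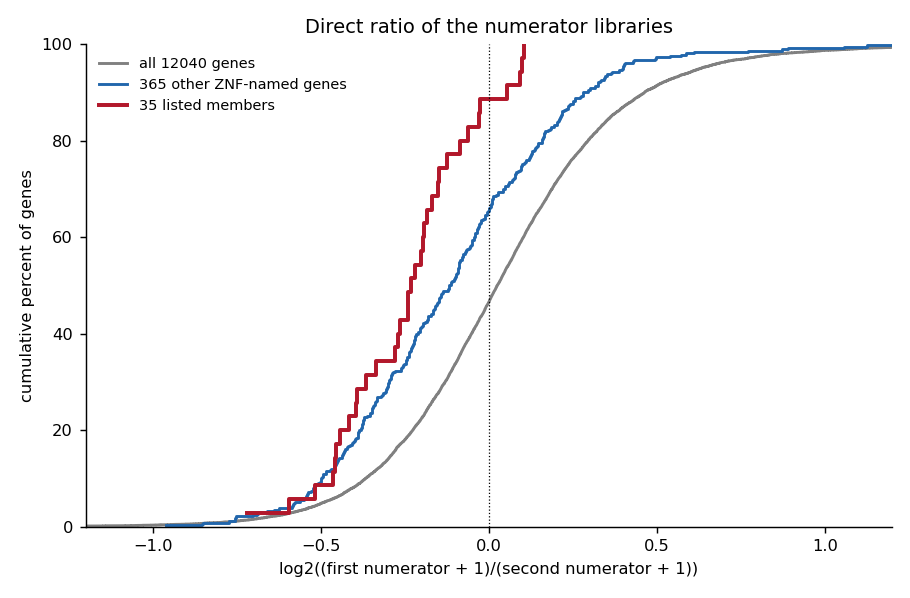
Cumulative percent of genes (vertical axis) by the log2 ratio of the first to the second numerator library (horizontal axis) for the 35 listed members, 365 other genes named ZNF and all 12040 genes; a few genes lie beyond the ends of the axis. The curve of the members lies to the left of both others over most of its range and crosses 0 with 31 of 35 genes to its left.

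Rows that share sequence set a limit on single genes. ZNF443 and ZNF799, neighbours in the inner block, shared 34.9% and 34.5% of their 50-base windows with transcripts of other genes. These were the highest shares among the listed members. Only genes with overlapping exons were left out of this count, so ZNF443 and ZNF799 could count for each other. How much they shared with each other was not separated. ZNF443 stood at -0.0035 and 0.12 in the first and second comparison, while ZNF799 stood at -0.34 and 0.38. Exons of ZNF559 and ZNF177 overlap those of the read-through row ZNF559-ZNF177, whose levels were 1.05, 0.21 and 0.64. Exons of ZNF625 overlap those of the read-through row ZNF625-ZNF20, with levels of 1.02, 0.79 and 0.46. Both read-through rows passed the filter through the denominator library alone, so no change is read from them. ZNF559 stood at -0.06 and 0.33 in the first and second comparison. How reads were divided between such rows is not stated in the labels.

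Other zinc finger genes were set beside the members. The 365 other rows named ZNF had medians of -0.03, 0.10 and -0.12 in the first comparison, the second and the direct ratio, with 58.1% below 0 in the first and 66.0% in the direct ratio. For 113 listed zinc finger genes of the long arm (19q) the medians were -0.11, 0.19 and -0.30, and 86.7% were below 0 in the direct ratio, beside 88.6% of the 19p members. Genes of other kinds that start within the span of any of the 3 blocks, 24 rows pooled, had medians of 0.17, -0.06 and 0.25. Of these, 3 were below 0 in the direct ratio. They were not split by block and may be spread unevenly, so their values are not read for any 1 block. Adjusted for GC content and transcript length, these neighbours had medians of 0.04, 0.05 and -0.01, with 12 of 23 below 0 in the direct ratio (52.2%). In the same adjusted direct ratio the median was -0.10 for the members, -0.11 for the other ZNF rows, -0.09 for 465 other genes with at least 3 C2H2 fingers and -0.22 for the 19q genes. The other ZNF rows include the 19q genes named ZNF and overlap the 465 genes, so these sets are not separate comparisons. None of these differences could be tested with 1 library per group.

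The base composition of the transcripts moved with these values. Median GC content was 42.1% in the 35 members, 44.5% in the other ZNF rows and 49.1% over all genes. At 19p12 it was 37.5%, in the inner block 42.2% and in the outer block 42.8%. Across all 10576 genes with a transcript, which are not independent, the direct ratio was higher at higher GC content (Spearman rho 0.47, Pearson r 0.43). Within the 35 members the relation was weaker (rho 0.21, r 0.16). After adjustment for GC content and transcript length, the median of the members was -0.02 in the first comparison (all genes 0.04), 0.09 in the second (all genes 0.04) and -0.10 in the direct ratio (all genes 0.0016). The number of members below 0 in the first comparison went from 27 to 18 (51.4%, against 40.5% of all genes). In the direct ratio it went from 31 to 24 (68.6%, against 49.7%). For the inner block the adjusted median of the first comparison turned to 0.07, with 5 of 14 genes below 0. The adjusted direct medians were -0.07 at 19p12, -0.03 in the inner and -0.20 in the outer block. In the band of 42 to 44% GC, which held 12 members, the median direct ratio was -0.29 for the members, -0.27 for 46 other genes with at least 3 C2H2 fingers and -0.10 for all 900 genes. In the band from 33 to 38% it was -0.23 for 8 members, -0.30 for 35 other genes with at least 3 fingers and -0.18 for all 682 genes.

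**Figure D5:**
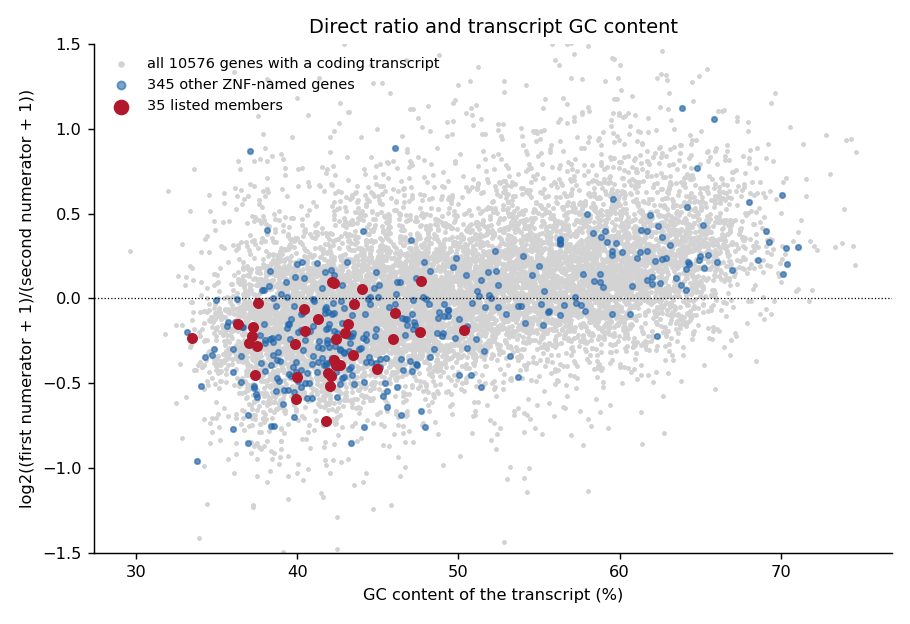
Log2 ratio of the first to the second numerator library (vertical axis) against GC content of the transcript in percent (horizontal axis) for all 10576 genes with a coding transcript (grey), 345 other genes named ZNF (blue) and the 35 listed members (red); genes beyond 1.5 in size fall outside the frame. The members lie between 33.5 and 50.4% GC, mostly below 0.

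Fold changes were set beside the seed matches of the coding sequence, and not beside those of the 3' UTR. The 10 members with 3 or more coding matches to miR-23a-3p had medians of -0.12 in the first and 0.22 in the second comparison, and the 19 with none had -0.10 and 0.12. For miR-181a-5p, the 22 members with 3 or more matches had -0.06 and 0.15, and the 4 with none, all at 19p12, had -0.22 and 0.09. Over the 35 members the Spearman rho between the number of coding matches and the fold change was 0.37 in the first and 0.18 in the second comparison for miR-181a-5p. For miR-23a-3p it was -0.04 and 0.04. The points share their libraries and differ in GC content and finger number. Among 465 other genes with at least 3 fingers, the 162 with 3 or more matches to miR-181a-5p had medians of -0.09 in the first and 0.16 in the second comparison, and the 220 with none had 0.04 and 0.0043. The rho over these 465 genes was -0.38 in the first comparison, of the opposite sign to that of the members, and 0.32 in the second. Their median GC contents were 42.2% and 53.3%, and the part of either in the values was not tested. The number of fingers, 6 to 32 in the listed members with a median of 12, had a rho of 0.17 and 0.22 with the fold change.

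The cofactors of KRAB repression had medians close to those of all genes. All 33 listed genes of this machinery were in the table, with median log2 fold changes of 0.03 and 0.04 (all genes 0.03 and 0.01). TRIM28, the corepressor that binds the KRAB box, had levels of 206, 217 and 209 in the denominator, first and second numerator library. SETDB1, the methyltransferase it recruits, had 20.5, 19.8 and 21.1. CBX5, which encodes HP1 alpha, fell by 0.54 in the first comparison, from 23.1 to 15.6, and was at -0.19 in the second. DNMT3B, a DNA methyltransferase, fell by 0.76 in the second comparison, from 8.94 to 4.88, and was at 0.20 in the first. These were the 2 genes of the list past the threshold of 0.5 in the first or second comparison. In each, 1 of 33 was lower (3.03%), against 2.04% and 5.59% of all genes. The highest were RBBP7, a histone-binding subunit of deacetylase complexes, at 0.35 in the first comparison and ATRX, a chromatin remodeller of silent repeats, at 0.30 in the second. In the direct ratio DNMT3B and UHRF1, which guides maintenance DNA methylation, stood at 0.96 and 0.68, and PPHLN1, of the HUSH silencing complex, was lowest at -0.41.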

How the data were processed

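Poly(A) RNA libraries (TRIzol extraction, Illumina TruSeq for HiSeq2000, per the labels' protocols) were summarised by the authors in 1 table without a header. Per the submitters' processing notes, TopHat2 2.06, SAMtools, Cufflinks, Cuffdiff 2.1.1 and CASAVA 1.8.2 were used with build hg19; no roles are recorded. The unit of the 3 level columns, the annotation and any use of strand are not given in the sources used here, and depth is unknown. The deposited log2 fold changes equalled log2 ratios of the levels with a pseudocount of 1, to within 5e-12, and ratios were recomputed that way (Python 3.11.15, pandas 2.3.3, code checked on simulated data). No column was matched to a sample. With 1 library per group no test was run. Members were described by counts at or past 0.5 and by medians, beside all 12040 genes.

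Members, lists and thresholds were chosen with earlier results of these data known. Named were members past 0.5, the 5 highest and 5 lowest per comparison, the extremes of each block and of mean level, and in other lists the extremes and those past 0.5. A few further members were named after their values were seen: ZNF14, ZNF91, ZNF675, ZNF708 and those discussed for shared sequence. Transcripts came from GENCODE 29 (GRCh38), a later build than the table's, the longest coding sequence per gene, for all 60 members and 10576 rows. Gene order and neighbours came from RefSeq (GRCh38.p14). A C2H2 finger was C, 2 to 4 residues, C, 12 residues, H, 3 to 5 residues, H. GC adjustment was least squares on GC content and log2 transcript length with squared terms.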

Additional observations from a re-analysis of the deposited data

How the results depend on the processing

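No median over all 35 members changed sign. With a pseudocount of 0.1, 1 of the 35 was higher and 2 of 35 were lower in the first comparison (all genes 2.72% and 3.51%). In the second, 5 of 35 were higher (3.91%), and in the direct ratio 10 of 35 were lower (6.86%). With a pseudocount of 5 the median direct ratio was -0.12, and 0 members were higher in the second comparison (all genes 0.581%) or lower in the direct ratio (1.63%). That pseudocount gave medians of 0.10 in the second comparison and -0.12 in the direct ratio at 19p12, and -0.16 in the direct ratio for the 19q genes. Of the 6 members with a mean level of at least 5, 5 were below 0 in the first comparison, 1 in the second and 6 in the direct ratio. Over the 8445 genes at that level the shares below 0 were 41.4%, 45.8% and 47.8%. Among these 6, 0 were higher in the second comparison and 1 was lower in the direct ratio (all genes at that level 2.37% and 4.76%). The inner block then held ZNF791 alone (first comparison -0.40, direct ratio -0.52), and the 19p12 block no gene. At a threshold of 0.3, 1 of the 35 was higher and 6 of 35 were lower in the first comparison (all genes 7.97% and 6.66%). In the second, 8 of 35 were higher (10.7%), and in the direct ratio 12 of 35 were lower (14.0%). At a threshold of 1, 0 members were higher in the second comparison (all genes 0.0831%) and 0 were lower in the direct ratio (all genes 0.349%). The next 3 alternatives were chosen after seeing the data. Adjustment for GC content and transcript length gave a median direct ratio of -0.10 and left 1 member lower, ZNF799 at -0.59 (all genes 3.58%). It turned the first median of the inner block to 0.068, and the second and direct medians of the neighbouring genes of other kinds to 0.049 and -0.014. It also moved the first median of those neighbours to 0.044, the first and direct medians at 19p12 to -0.016 and -0.066, and the direct median of the inner block to -0.029. Without the 7 members that share exons or sequence with other rows, 1 was higher in the second comparison, ZNF564. The 10 members with a 3' UTR 7-mer picked earlier from these fold changes were then left out. No count below 0, higher or lower moved by over 1.5 times, and no median by 0.1 or more. In the second comparison 9 members were still below 0, now of 25 (36.0%, beside 25.7% of the 35), so the share above 0 fell. Re-centring on the median of all genes, an alternative listed with the design, moved no such count by over 1.5 times. Nor did any median move by 0.1 or more. All 35 members met the condition of a KRAB pattern or at least 3 fingers, so that alternative changed nothing. The alternative by protein identity was not run, for want of a protein table here. No paired analysis was possible because each group had 1 library. For ZNF177, ZNF564, ZNF799, ZNF791 and ZNF429, 12 of 21 values moved by at least 0.1 and none changed sign. ZNF564 in the second comparison ran from 0.28 at a pseudocount of 5 to 0.93 at 0.1. The precision of low levels is unknown.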

Other observations

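Zinc finger rows within or beside the 3 blocks that are not among the members were also listed. ZNF493, which lies at 19p12, had levels of 1.51, 1.41 and 2.057 in the denominator, first and second numerator library, with log2 fold changes of -0.06 and 0.28. ZNF833P, a pseudogene row of the inner 19p13.2 stretch, had 1.12, 0.90 and 1.04 (-0.16 and -0.05). ZNF358 and ZNF414, in the outer stretch, stood above 0 in the first comparison, at 0.31 and 0.46, with levels of 14.7 and 18.5 for ZNF358 and 4.79 and 6.97 for ZNF414. Their direct ratios were 0.39 and 0.36, while that of ZNF493 was -0.34. These rows were chosen after their values were seen.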
